A study of Mus musculus with 2 samples.

Results

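The glucocorticoid receptor gene Nr3c1 and 5 genes that glucocorticoids are known to switch on, Tsc22d3, Fkbp5, Per1, Sgk1 and Zbtb16, were followed through the keratinocyte states of 2 single-cell RNA libraries of mouse skin epidermis. The 6 genes were chosen by name, with earlier results of these data known. All of them stand among the 32286 features of both count matrices. One library came from Survivin gain-of-function (GOF) mice, which carry Krt14rtTA and Survivin GOF on top of Involucrin-CREER and Rosa-SmoM2, and the other from control mice with Involucrin-CREER/Rosa-SmoM2. Both genotypes carry SmoM2, a permanently active form of Smoothened that turns on the hedgehog pathway, under a CreER whose involucrin promoter is active mainly in suprabasal epidermis. Krt14rtTA is a tetracycline-responsive driver under the promoter of a basal keratin, and the control mice lack both it and the Survivin allele, so driver and allele cannot be told apart. The sort took α6-high, CD34-negative cells with YFP, which marks SmoM2. The sources used here do not give mouse numbers, ages, sexes or the induction schedule. The design asks how raised Survivin bears on basal cell carcinoma formation by these cells.

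Each genotype has 1 library, so no difference below has a replicate check or a test, and all intervals are 95% intervals that cover counting error only. Cells with at least 1500 genes and at most 10% mitochondrial UMIs (unique molecular identifiers, the counted RNA molecules) numbered 6922 in the GOF and 10993 in the control library. Of these, 6719 GOF cells with 109402609 UMIs and 10801 control cells with 107047182 UMIs were keratinocytes, and their median depth was 12636 and 7702 UMIs. The libraries shared 22 barcodes among kept cells, 0.318% of the GOF and 0.200% of the control cells. Birc5, which encodes Survivin, stood at 783 CPM (UMIs per 1000000) in GOF and 56.3 CPM in control keratinocytes, and the basal keratin Krt14 at 15165 and 12861 CPM. The libraries differed in sex: by Xist and Y-linked UMIs, 3776 GOF keratinocytes were called female and 1872 male, against 30 female and 7891 male in the control. Another 701 GOF and 71 control keratinocytes had both kinds of UMI, and 370 and 2809 had neither. Comparisons by sex call leave these cells out. The sum of immune markers was 30.8 CPM in GOF and 43.9 CPM in control keratinocytes (12 of 13 markers found in each, Cd3e at 0 in GOF and Trdc at 0 in control). That of melanocyte markers was 28.6 and 69.9 CPM (7 of 7 in each), and that of fibroblast and endothelial markers without Dcn 3.88 and 10.8 CPM, with Cdh5 and Kdr at 0 in GOF. The part of such RNA in the results was not tested.

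Keratinocytes were placed in 10 states by summed UMIs of marker genes in cells thinned to 3000 UMIs. The states were hedgehog-high (by hedgehog targets such as Gli1, Ptch1 and Hhip; 530 GOF and 881 control cells), mitotic hedgehog-high (89 and 342), other mitotic (719 and 1531), basal-keratin-high (2788 and 3397), suprabasal-high (529 and 792) and tail-scale-high (Krt36, Krt84; 267 and 903). The others were upper-follicle-high (254 and 319), sebaceous-high (174 and 408), Postn/Lhx2-high (262 and 327), chosen on a follicle bulge list but named by its leading genes because of the CD34 gate, and low-marker (1107 and 1901). These are ranges of a score and not cell types. Within 1.5 times their cut lay 64.2% of GOF and 68.7% of control hedgehog-high cells, and 65.3% and 66.7% of Postn/Lhx2-high cells. YFP stood at 31.4 CPM in GOF and 29.9 CPM in control hedgehog-high cells, and at 1.58 and 6.81 CPM in basal-keratin-high cells.

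The glucocorticoid receptor is a nuclear hormone receptor held in the cytoplasm by Hsp90 chaperones until it binds cortisol or corticosterone. It then enters the nucleus and binds glucocorticoid response elements, paired short motifs at which it recruits coactivators. In skin, glucocorticoids come from the adrenal gland and from local synthesis and reactivation, restrain inflammation and keratinocyte proliferation, and take part in forming the barrier. Tsc22d3 encodes GILZ, a leucine zipper protein that mediates anti-inflammatory effects. Fkbp5 encodes FKBP51, an Hsp90 co-chaperone that lowers the receptor's affinity for hormone and so closes a feedback loop. Per1 is a repressor of the circadian clock, Sgk1 a kinase that keeps epithelial sodium channels at the membrane, and Zbtb16 a zinc finger transcription factor also called PLZF.

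Promoter sequences show which of the target genes carry the receptor's motif next to a start site. RefSeq windows of build GRCm38.p6, 250 bases before to 50 after a start, matched 4 of the 6 genes, with 6 windows for Sgk1, 3 for Tsc22d3, 2 for Per1 and 1 for Fkbp5. One window of each is printed 5′ to 3′ on the gene's strand, the one of Sgk1 because it holds the full element and the others because they hold a motif. Capitals mark AGAACA, 1 arm of the receptor's element, on either strand, and the E-box CACGTG, the site of clock and other basic helix-loop-helix factors. The windows are Sgk1 chr10:21993640-21993939 (plus strand), Tsc22d3 chrX:140600473-140600772 (minus), Fkbp5 chr17:28486100-28486399 (minus) and Per1 chr11:69098699-69098998 (plus).
Sgk1: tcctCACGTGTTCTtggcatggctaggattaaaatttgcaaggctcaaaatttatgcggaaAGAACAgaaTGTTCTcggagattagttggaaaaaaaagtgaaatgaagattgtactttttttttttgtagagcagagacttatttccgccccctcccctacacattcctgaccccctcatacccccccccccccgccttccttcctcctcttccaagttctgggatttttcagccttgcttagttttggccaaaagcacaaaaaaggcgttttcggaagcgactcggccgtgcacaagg
Tsc22d3: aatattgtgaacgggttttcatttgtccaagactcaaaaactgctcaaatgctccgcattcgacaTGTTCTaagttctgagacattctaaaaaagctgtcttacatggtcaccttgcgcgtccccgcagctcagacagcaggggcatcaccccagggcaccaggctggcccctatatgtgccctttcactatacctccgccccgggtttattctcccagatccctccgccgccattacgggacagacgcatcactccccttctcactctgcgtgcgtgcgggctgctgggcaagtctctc
Fkbp5: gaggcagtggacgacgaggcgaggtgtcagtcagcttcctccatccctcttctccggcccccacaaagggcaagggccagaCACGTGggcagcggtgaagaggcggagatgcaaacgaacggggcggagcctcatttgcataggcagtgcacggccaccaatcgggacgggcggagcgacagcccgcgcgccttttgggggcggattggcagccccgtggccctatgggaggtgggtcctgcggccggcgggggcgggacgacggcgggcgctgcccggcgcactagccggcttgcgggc
Per1: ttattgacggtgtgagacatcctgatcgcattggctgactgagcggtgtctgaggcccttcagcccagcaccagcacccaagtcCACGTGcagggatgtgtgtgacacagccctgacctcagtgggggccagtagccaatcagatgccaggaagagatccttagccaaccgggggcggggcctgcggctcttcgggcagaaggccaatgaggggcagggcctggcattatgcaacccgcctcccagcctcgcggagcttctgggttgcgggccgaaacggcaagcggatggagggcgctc
The Sgk1 window holds the full element, AGAACA and TGTTCT with 3 bases between them, which 3 of 32851 RefSeq promoters (0.00913%) hold. It also has 1 more arm, overlapping its E-box. The Tsc22d3 window has a single arm, a match found in 19.0% of all promoters, and the Fkbp5 and Per1 windows each have 1 E-box, found in 7.15%. TGACG, a short form of the cAMP response element found in 20.8% of all promoters, was searched too and is not capitalised. A match describes these letters only, and elements outside the windows were not searched. In the mm10 GENCODE vM21 annotation these protein-coding genes span chrX:140539528-140600659 (Tsc22d3, minus), chr17:28399094-28517527 (Fkbp5, minus), chr11:69095217-69109960 (Per1, plus), chr10:21882184-21999903 (Sgk1, plus) and chr9:48654297-48836222 (Zbtb16, minus). Fkbp5 overlaps AC154912.5 and AC154912.3 on its own strand, so how its reads were assigned there is uncertain.

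Over all keratinocytes the receptor gene was slightly higher in the GOF library, 4 of its 5 targets were lower, and Sgk1 did not differ beyond counting error. Nr3c1 stood at 136 CPM (134 to 138) in GOF and 109 CPM (107 to 111) in control keratinocytes, a log2 ratio of 0.32 (0.28 to 0.35). Tsc22d3 stood at 39.6 CPM (38.4 to 40.8) in GOF and 78.4 CPM (76.7 to 80.1) in control keratinocytes, a log2 ratio of -0.99 (-1.04 to -0.93). Fkbp5 had nearly the same ratio, -0.99 (-1.07 to -0.92), with 19.3 CPM (18.5 to 20.2) in GOF and 38.5 CPM (37.3 to 39.7) in control keratinocytes. These targets were thus at 0.505 and 0.502 of their control levels while the receptor's own RNA was at 1.25 of its control level. Between male-called cells alone the 3 ratios were 0.631, 0.655 and 1.10. Per1 stood at 20.6 CPM (19.8 to 21.5) in GOF and 31.4 CPM (30.4 to 32.5) in control keratinocytes, a log2 ratio of -0.61 (-0.69 to -0.53). Zbtb16 stood at 19.6 CPM (18.7 to 20.4) and 26.8 CPM (25.8 to 27.8), a log2 ratio of -0.45 (-0.53 to -0.37). Sgk1 stood at 50.3 CPM (49.0 to 51.6) in GOF and 49.2 CPM (47.9 to 50.5) in control keratinocytes, and its log2 ratio of 0.03 (-0.02 to 0.09) has an interval that includes 0.

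Among 14705 genes with at least 50 pooled UMIs, ordered from the lowest ratio, Fkbp5 held place 365, Tsc22d3 375, Per1 777 and Zbtb16 1147. Sgk1 held place 6313 and Nr3c1 place 11912. Lower by at least 1.5-fold were 3 of the 6 genes, Tsc22d3, Fkbp5 and Per1, where 5.52% of all genes were. None was higher by that fold, where 6.54% of all genes were. The median log2 ratio of the 6 was -0.53, beside 0.08 over all genes. When the states were given the same mix in both libraries, the log2 ratio was -1.02 for Tsc22d3, -0.95 for Fkbp5, -0.62 for Per1, -0.50 for Zbtb16, -0.04 for Sgk1 and 0.30 for Nr3c1. Sgk1 alone changed sign.

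**Figure D1:**
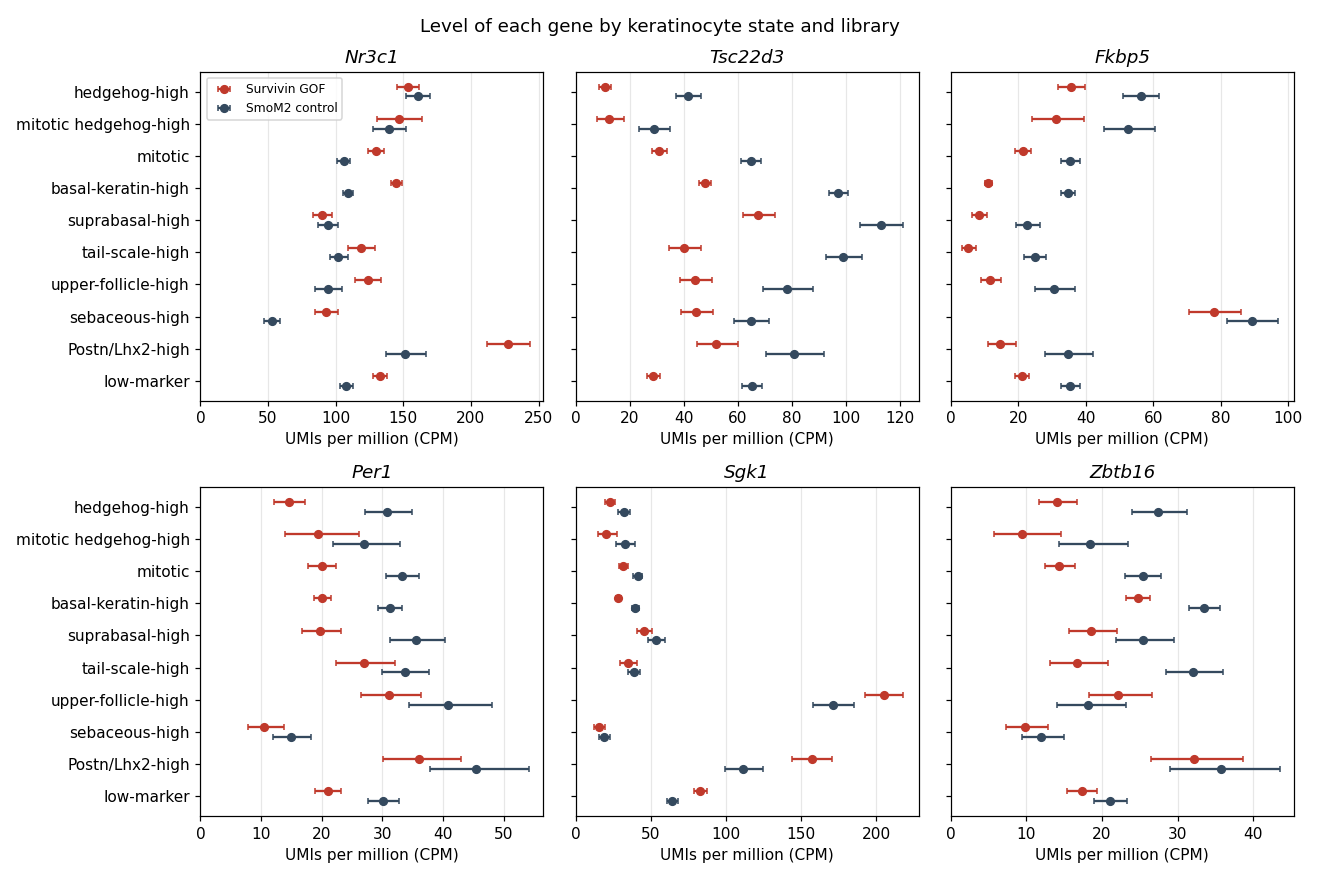
Level of each gene in CPM (UMIs per 1000000, linear axis from 0) in 10 keratinocyte states; points are 1 library each, GOF in red above control in dark blue, bars are exact Poisson 95% intervals for counting error. Fkbp5 is highest in sebaceous-high cells of both libraries (78.1 CPM GOF, 89.2 CPM control), and Sgk1 in upper-follicle-high cells (205 and 171 CPM).

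The receptor gene, Nr3c1 at chr18:39410545-39519421 (minus strand), was found in every state. In the GOF library Nr3c1 was highest in Postn/Lhx2-high cells, at 227 CPM (212 to 244), with no overlap with the next state. Hedgehog-high, mitotic hedgehog-high and basal-keratin-high cells followed at 153, 147 and 145 CPM, not separable by their intervals. In the control library hedgehog-high (161 CPM), Postn/Lhx2-high (151 CPM) and mitotic hedgehog-high cells (139 CPM) led, and the neighbours in that order overlapped. The lowest Nr3c1 levels were those of suprabasal-high cells in GOF (90.1 CPM, against 94.2 CPM in control) and of sebaceous-high cells in control (92.9 CPM in GOF, 52.8 CPM in control). The span from highest to lowest state was 2.52-fold in GOF and 3.04-fold in control.

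Nr3c1 was higher in GOF, with an interval above 1, in 7 of 10 states, and past 1.5-fold in sebaceous-high cells (log2 0.81, 0.61 to 1.02) and Postn/Lhx2-high cells (log2 0.59, 0.41 to 0.76). In these states 13.9% and 8.97% of all genes were higher by at least 1.5-fold, and the median log2 ratio of all genes was 0.18 and 0.10. Hedgehog-high, mitotic hedgehog-high and suprabasal-high cells had Nr3c1 intervals that include 1, with log2 ratios of -0.07 (-0.18 to 0.04), 0.07 (-0.13 to 0.28) and -0.06 (-0.22 to 0.09). The libraries differ in sex, and between male-called cells alone the Nr3c1 interval lay above 1 in 4 of 10 states and below 1 in 0. Its log2 ratio there ran from -0.51 in tail-scale-high cells (24 UMIs in GOF) to 0.61 in sebaceous-high cells, and in Postn/Lhx2-high cells it was 0.48, within 1.5-fold.

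Tsc22d3 was highest in suprabasal-high cells and lowest in both hedgehog-high states. Suprabasal-high cells had the highest level in both libraries, 67.7 CPM (GOF) and 113 CPM (control). In GOF the lowest levels were those of hedgehog-high cells, 10.8 CPM, and mitotic hedgehog-high cells, 12.3 CPM. The same 2 states were lowest in control, at 41.6 and 28.9 CPM. Highest and lowest state differed 6.26-fold in GOF and 3.92-fold in control. The GOF level was below the control level, with an interval below 1, in all 10 states. The ratio was furthest from 1 in hedgehog-high cells, where Tsc22d3 was at 10.8 CPM (8.76 to 13.2; 96 UMIs) in GOF and 41.6 CPM (37.2 to 46.3; 335 UMIs) in control, a log2 ratio of -1.94 (-2.29 to -1.61). Basal-keratin-high cells had 47.9 CPM in GOF and 97.4 CPM in control (log2 -1.02, -1.11 to -0.94). Sebaceous-high cells had the smallest difference and the only one within 1.5-fold, 44.7 and 64.8 CPM (log2 -0.54, -0.78 to -0.30).

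Fkbp5 had another order of states. It was highest in sebaceous-high cells, 78.1 CPM in GOF and 89.2 CPM in control, then in hedgehog-high cells, 35.5 and 56.2 CPM, and mitotic hedgehog-high cells, 31.1 and 52.6 CPM. Tail-scale-high and suprabasal-high cells were lowest, with 5.04 CPM in GOF and 24.8 CPM in control for tail-scale-high cells and 8.26 and 22.6 CPM for suprabasal-high cells. Hedgehog-high cells therefore stood near the top of the order for Fkbp5 and near the bottom for Tsc22d3 in both libraries. The span over states was 15.5-fold in GOF and 3.95-fold in control. Fkbp5 too was lower in GOF in all 10 states. The log2 ratio was -2.30 (-2.99 to -1.68) in tail-scale-high and -1.65 (-1.81 to -1.48) in basal-keratin-high cells, which had 11.1 CPM in GOF and 34.7 CPM in control. In sebaceous-high cells the ratio was 0.876 (0.768 to 0.998), the only one within 1.5-fold. Between male-called cells alone the 2 largest differences were smaller. The male-called ratio was 0.486 (0.131 to 1.26; 4 UMIs in GOF) in tail-scale-high cells, with an interval that includes 1. In male-called basal-keratin-high cells the log2 ratio was -0.89, with 18.7 CPM in GOF and 34.6 CPM in control.

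**Figure D2:**
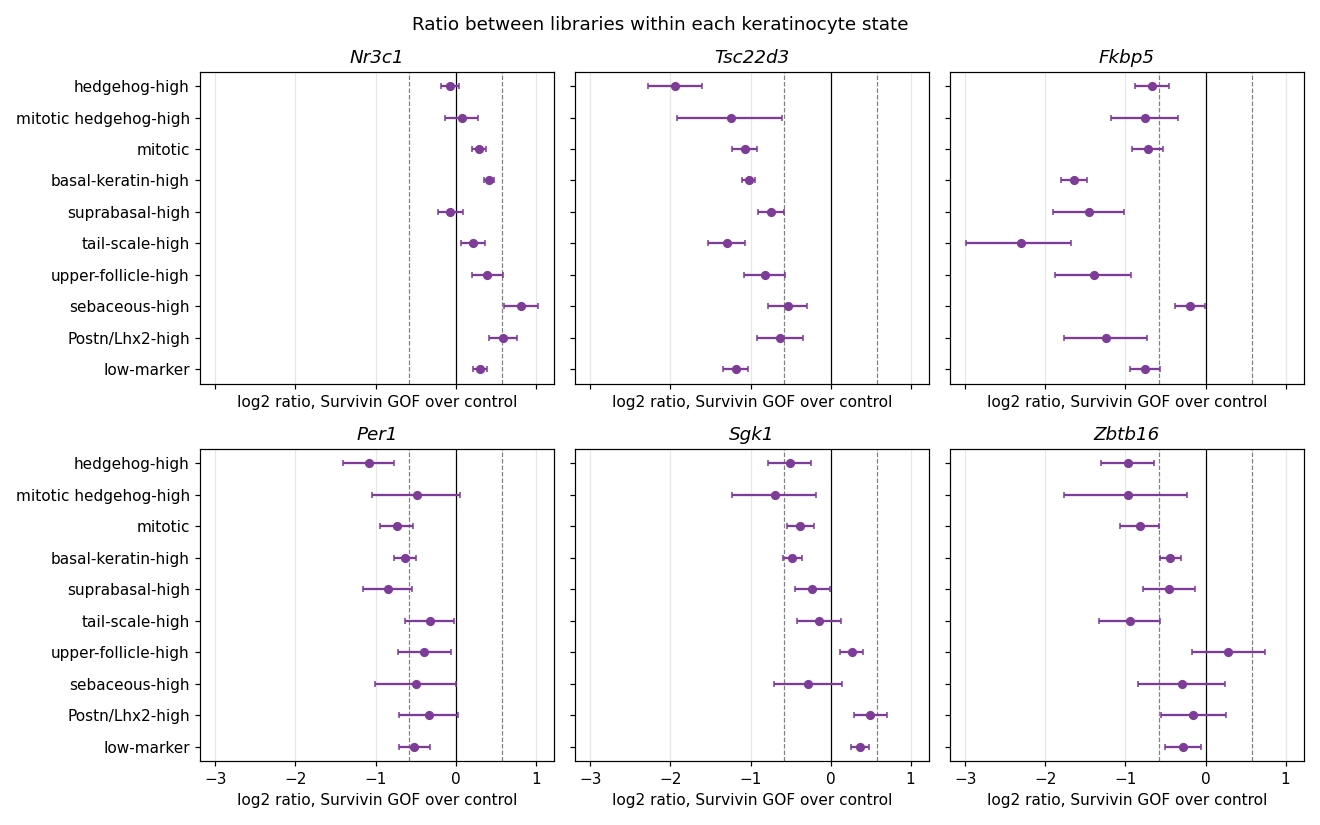
Log2 ratio of Survivin GOF over control CPM for each gene within each of 10 keratinocyte states; bars are exact 95% intervals for counting error in 1 library per genotype, and dashed lines mark 1.5-fold. All 10 Tsc22d3 and Fkbp5 points lie below 0, from -1.94 to -0.54 and from -2.30 to -0.19, while Sgk1 points lie on both sides.

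Per1 was most abundant in follicle states. Postn/Lhx2-high cells (36.1 CPM in GOF, 45.5 CPM in control) and upper-follicle-high cells (31.1 and 40.8 CPM) led in both libraries, and sebaceous-high cells (10.5 and 14.9 CPM) were last. Most neighbours between them overlapped. Per1 was lower in GOF in all 10 states by its value and in 7 by its interval, past 1.5-fold in 4. The ratio furthest from 1 was that of hedgehog-high cells, with 14.5 CPM (12.1 to 17.3) in GOF and 30.8 CPM (27.1 to 34.9) in control, a log2 ratio of -1.08 (-1.40 to -0.77).

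Sgk1 was also highest in follicle states, with a wider span. In GOF it stood at 205 CPM in upper-follicle-high and 157 CPM in Postn/Lhx2-high cells, against 15.6 CPM in sebaceous-high cells. Control cells gave the same ends of the order, 171, 111 and 19.0 CPM, and the top 4 states held the same order in both libraries without overlap. Its GOF level was higher than control in upper-follicle-high (log2 0.26, 0.12 to 0.41), Postn/Lhx2-high (157 and 111 CPM, log2 0.50, 0.29 to 0.70) and low-marker cells (82.9 and 64.4 CPM, log2 0.36, 0.25 to 0.48). It was lower in 5 states, among them basal-keratin-high (28.4 CPM in GOF and 39.7 CPM in control, log2 -0.48, -0.60 to -0.36) and hedgehog-high cells (22.7 and 32.3 CPM, log2 -0.51, -0.78 to -0.24). The ratio near 1 over all keratinocytes is thus made of states in both directions, and the difference between states was not tested. Between male-called cells the interval lay below 1 in 5 and above 1 in 2 of 10 states. In upper-follicle-high cells the male-called ratio was 0.967 (0.844 to 1.11), so the higher GOF level there was not seen between male-called cells. By variance over mean, Sgk1 was the most unevenly spread of the 6 genes over cells. After thinning to 3000 UMIs the variance over the mean was 1.73 in GOF and 1.33 in control keratinocytes, where the other 5 genes lay between 1.03 and 1.16. The 1% of cells with most Sgk1 held 16.8% of its UMIs in GOF and 16.0% in control, and the 1% with most Fkbp5 held 17.2% and 11.8% of the Fkbp5 UMIs.

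Zbtb16 was highest in Postn/Lhx2-high cells (32.1 CPM in GOF, 35.7 CPM in control) and basal-keratin-high cells (24.7 and 33.5 CPM). It was lowest in mitotic hedgehog-high cells of GOF (9.43 CPM, against 18.4 CPM in control) and in sebaceous-high cells of control (9.76 CPM in GOF, 11.9 CPM in control). Its interval lay below 1 in 7 states, with log2 ratios of -0.97 (-1.30 to -0.65) in hedgehog-high cells, 14.0 and 27.4 CPM, and -0.94 (-1.33 to -0.57) in tail-scale-high cells, 16.6 and 32.0 CPM. Upper-follicle-high cells had the only ratio above 1, and its interval includes 1 (log2 0.28, -0.17 to 0.75).

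In hedgehog-high cells, in which hedgehog targets are on, 4 of the 6 genes were lower by at least 1.5-fold (Tsc22d3, Fkbp5, Per1, Zbtb16), where 5.40% of all genes were. Mitotic hedgehog-high cells also had 4 (Tsc22d3, Fkbp5, Sgk1, Zbtb16; 5.37% of all genes), as did other mitotic cells (Tsc22d3, Fkbp5, Per1, Zbtb16; 4.53%). There were 3 in basal-keratin-high (7.03%), suprabasal-high (5.98%) and tail-scale-high cells (8.45%). Tsc22d3 and Fkbp5 alone were lower by that fold in upper-follicle-high (4.28%), Postn/Lhx2-high (4.42%) and low-marker cells (4.79%). Sebaceous-high cells had 0 lower (3.88%). Between male-called hedgehog-high cells the log2 ratio was -2.22 for Tsc22d3 (20 UMIs in GOF), -1.27 for Per1 and -1.12 for Sgk1, but -0.42 for Fkbp5 and -0.38 for Zbtb16, both within 1.5-fold. In other mitotic cells called male, Fkbp5 (-0.23) and Zbtb16 (-0.10) were within it as well. In all, 27 of 60 pairs of gene and state were lower and 2 higher by at least 1.5-fold, and the states share their libraries, so the pairs are not independent. Of these 29 pairs, 27 kept their direction between male-called cells and 19 were still past 1.5-fold. Sgk1 in mitotic hedgehog-high cells is in neither count, because it has no log2 ratio there. It had 0 UMIs in the 15 male-called GOF cells of that state and 104 in the 250 male-called control cells.

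Per cell, the targets were sparse, and shares of cells with a UMI were compared after thinning each cell to 3000 UMIs (6708 GOF and 10709 control keratinocytes). A UMI of Tsc22d3 was found in 11.4% (10.6 to 12.1) of GOF and 21.0% (20.3 to 21.8) of control keratinocytes. For Fkbp5 the shares were 4.68% (4.19 to 5.21) in GOF and 10.0% (9.47 to 10.6) in control. Unthinned, the same shares were 39.6% and 45.3% for Tsc22d3 and 20.8% and 27.5% for Fkbp5, in cells of the unequal depth given above. Thinned shares were 6.25% in GOF and 8.79% in control for Per1 (25.6% and 24.6% unthinned), 6.04% and 8.07% for Zbtb16 (23.8% and 21.1%), 11.9% and 12.6% for Sgk1 (33.9% and 28.9%) and 32.7% and 28.2% for Nr3c1 (77.5% and 57.2%). For Per1 and Zbtb16 the unthinned shares thus had the opposite order to the thinned ones. No cell type in these libraries is known to lack these genes, so no background share from free RNA could be set.

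At that depth 66.4% of GOF and 52.4% of control keratinocytes held no UMI of any of the 5 targets, and 6.05% and 11.2% held UMIs of 2 or more. Postn/Lhx2-high cells had the highest share with 2 or more, 15.7% in GOF and 20.1% in control, and hedgehog-high cells had 2.08% and 8.86%. GOF cells with a Zbtb16 UMI had Tsc22d3 at 63.4 CPM and those without at 41.9 CPM, and in control the values were 91.8 and 82.4 CPM. The split by Sgk1 gave 53.9 and 41.7 CPM in GOF and 89.7 and 82.2 CPM in control, with the higher value in cells with a UMI. GOF cells with an Fkbp5 UMI had Tsc22d3 at 36.1 CPM and those without at 43.5 CPM, and in control the values were 81.6 and 83.3 CPM. GOF cells with a receptor UMI had Tsc22d3 at 43.8 CPM and those without at 42.9 CPM, and control cells 87.6 and 81.4 CPM. These values pool all states, and in basal-keratin-high cells alone some orders were opposite. There the GOF split by Fkbp5 gave Tsc22d3 at 72.8 CPM with a UMI and 52.4 CPM without, by the receptor 51.1 and 54.1 CPM. In control the split by Zbtb16 gave 88.1 and 103 CPM, and that by Sgk1 90.2 and 103 CPM. The GOF splits by Zbtb16 and Sgk1 and the control splits by Fkbp5 and the receptor kept their order. Counts this sparse limit what such a comparison can show.

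Because 3776 of the GOF keratinocytes were called female and nearly all called control cells were male, the genes were set side by side by sex call. In male-called cells Tsc22d3 stood at 49.0 CPM in GOF and 77.6 CPM in control (log2 -0.66), Fkbp5 at 25.3 and 38.6 CPM (log2 -0.61) and Per1 at 16.3 and 31.4 CPM (log2 -0.95). The same 3 genes were thus lower by at least 1.5-fold as in all keratinocytes, where 7.21% of genes in male-called cells were. None of the 6 was higher by that fold (5.53% of genes). Sgk1 had 47.3 CPM in male-called GOF and 49.6 CPM in male-called control cells (log2 -0.07), and Nr3c1 120 and 109 CPM (log2 0.13). The median log2 ratio over all genes was 0.05 in this comparison. Zbtb16 had 28.6 and 26.6 CPM (log2 0.10, ratio 1.07, 0.993 to 1.16), so its lower level in the whole GOF library was not seen between male-called cells. By state, male-called cells had an interval below 1 for Tsc22d3 in 9, Per1 in 8 and Fkbp5 in 7 of 10 states, and for Zbtb16 in 0.

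**Figure D3:**
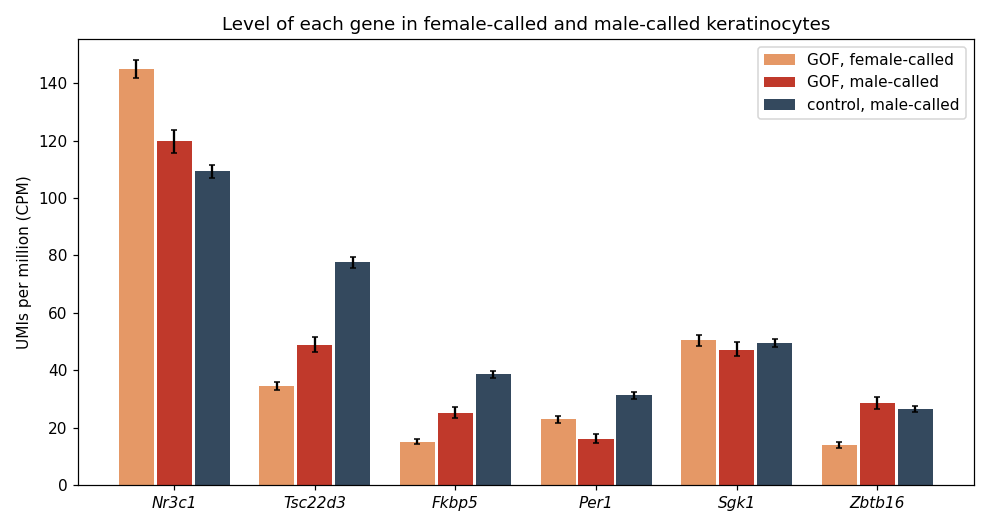
Level of each gene in CPM (linear axis from 0) in female-called and male-called GOF and male-called control keratinocytes; bars are 1 library's cells, error bars exact Poisson 95% intervals for counting error. The 3 Zbtb16 bars are at 14.0, 28.6 and 26.6 CPM, in that order.

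Within the GOF library, female-called cells had less Zbtb16 than male-called cells, 14.0 against 28.6 CPM (log2 -1.04), and its interval lay below 1 in 8 of 10 states. With all states pooled, Fkbp5 was lower as well, at 15.2 against 25.3 CPM (log2 -0.73). By state, however, its interval lay below 1 in only 2 of 10 and above 1 in 1. The latter was the sebaceous-high state, where Fkbp5 was highest and the ratio of female over male calls was 1.51 (1.21 to 1.88). Zbtb16 and Fkbp5 were the 2 of 6 genes lower by at least 1.5-fold in the pooled states, where 4.09% of genes were, and none was higher (5.23%). X-linked Tsc22d3 gave 34.6 CPM in GOF cells called female and 49.0 CPM in those called male (log2 -0.50). Per1 had the other order, with 22.9 CPM against 16.3 CPM (log2 0.50), and Nr3c1 145 and 120 CPM (log2 0.28). Female-called and male-called cells come from different animals, so sex and animal cannot be told apart.

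By value, Tsc22d3 and Fkbp5 were also lower in GOF in barcodes called melanocyte or immune, which held much keratinocyte RNA as well. Melanocytes (133 GOF and 125 control cells) had Tsc22d3 at 45.5 CPM in GOF and 95.5 CPM in control, and Fkbp5 at 9.43 and 29.5 CPM. Immune cells (69 and 61) had Tsc22d3 at 94.5 CPM in GOF and 185 CPM in control, and Fkbp5 at 15.9 and 41.8 CPM. All 4 ratios have intervals below 1. Melanocytes also held Krt14 at 19546 CPM in GOF and 17474 CPM in control, and immune cells at 11368 and 10322 CPM. Keratinocytes had 15165 and 12861 CPM. These values therefore cannot show the differences apart from keratinocyte RNA, whose part was not tested. In barcodes under 1000 UMIs, Tsc22d3 stood at 23.6 CPM in GOF (7 UMIs) and 87.8 CPM in control (64 UMIs), and Fkbp5 at 20.3 CPM (6 UMIs) and 39.8 CPM (29 UMIs). By value, both genes were thus lower in GOF in these barcodes too.

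The machinery around the receptor was described from lists of known genes, by the same count of genes past 1.5-fold over all keratinocytes. There 5.52% of all genes were lower and 6.54% higher by that fold. Of 12 Hsp90 chaperones and co-chaperones of the receptor, 0 were lower and 0 higher (median log2 0.12), with the Hsp40 Dnaja1 at 261 CPM in GOF and 197 CPM in control (log2 0.40). Of 10 coregulators, 0 were lower and 0 higher (median 0.21). The acetyltransferase Ep300 came closest, at 51.9 CPM in GOF and 34.7 CPM in control (log2 0.58), and the corepressor Ncor1 had 226 and 187 CPM (log2 0.27). Of 9 measured paralogs of the 6 genes, 0 were lower and 0 higher (median 0.22): Per3 had 45.6 and 33.5 CPM (log2 0.45), Per2 8.12 and 5.99 CPM (log2 0.44), and the mineralocorticoid receptor Nr3c2 only 0.823 and 0.579 CPM.

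Of 24 other glucocorticoid-induced genes, 20 had 50 pooled UMIs over all keratinocytes, 0 were lower and 1 higher by at least 1.5-fold, and their median log2 ratio was -0.05. The decoy interleukin receptor Il1r2 was the higher one, at 17.5 CPM in GOF and 9.49 CPM in control (log2 0.88), but in male-called cells it stood at 10.6 and 9.18 CPM (log2 0.20). Angptl4, an inhibitor of lipoprotein lipase, had 3.32 and 4.90 CPM (log2 -0.56), the transcription factor Klf15 6.21 and 8.75 CPM (log2 -0.50) and the mRNA-destabilising protein Zfp36 14.9 and 19.8 CPM (log2 -0.41). Klf9, Dusp1 and the metallothionein Mt1 had log2 ratios of -0.14, -0.32 and -0.06. In male-called cells Dusp1, a phosphatase of MAP kinases, was past 1.5-fold, at 19.5 CPM in GOF and 31.8 CPM in control (log2 -0.70), while Klf9 had a log2 ratio of -0.42 and Mt1 of -0.13. Within states more of the list was lower by that fold: 4 of 19 measured genes in hedgehog-high cells (median log2 -0.14), where 5.40% of all genes were, and 4 of 20 in basal-keratin-high cells (median -0.23), where 7.03% were. The median over all genes was 0.08 in both states. In each of them 1 gene of the list was higher by that fold, for which no share over all genes is given. In basal-keratin-high cells it was Il1r2, at 35.0 CPM in GOF and 17.5 CPM in control.

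**Figure D4:**
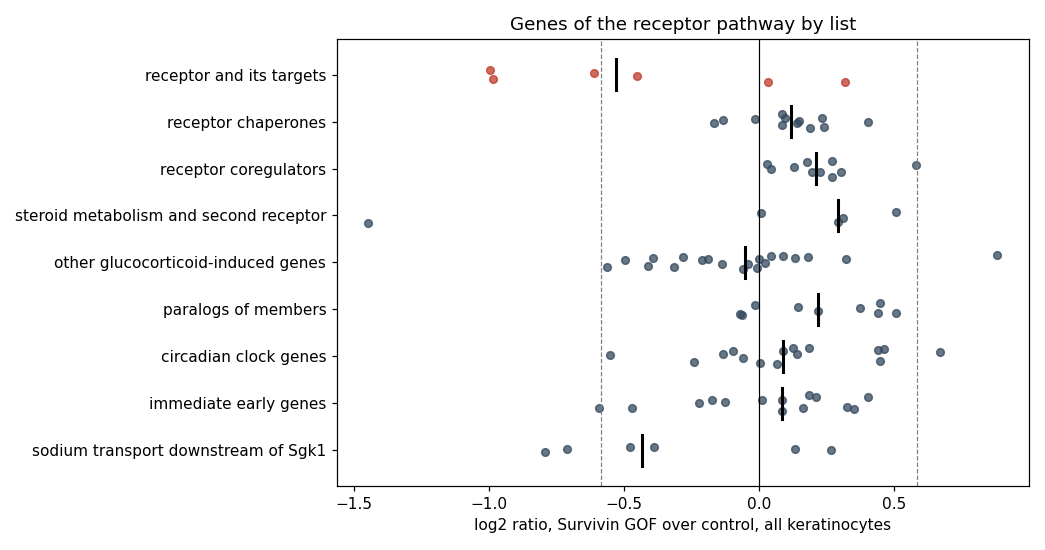
Log2 ratio of Survivin GOF over control CPM in all keratinocytes, 1 library each, for the receptor and its targets (red) and for lists of related genes (dark blue); each point is a gene with at least 50 pooled UMIs, black bars are list medians and dashed lines mark 1.5-fold. The red median is -0.53, and medians of the other lists run from -0.43 (sodium transport) to 0.29 (steroid metabolism).

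Of all listed genes, Hsd11b1 had the ratio furthest from 1. Hsd11b1 encodes the enzyme that regenerates active glucocorticoid inside cells, and it stood at 5.07 CPM in GOF and 13.8 CPM in control keratinocytes (log2 -1.45, -1.59 to -1.30). It was 1 of 5 measured genes of its list lower by at least 1.5-fold, with 0 higher, where 5.52% and 6.54% of all genes were. Most of its UMIs came from sebaceous-high cells, where it had 97.4 CPM in GOF and 165 CPM in control. Basal-keratin-high cells had 5 UMIs (0.126 CPM) in GOF and 163 UMIs (5.21 CPM) in control. Outside sebaceous-high cells, control levels ran from 1.38 CPM (mitotic hedgehog-high) to 5.98 CPM (other mitotic). GOF levels there ran from 0.126 CPM (basal-keratin-high) to 1.77 CPM (other mitotic). How much of these low levels was free RNA from sebaceous-high cells was not tested. In male-called cells pooled over states Hsd11b1 stood at 13.5 CPM in GOF and 14.8 CPM in control (log2 -0.13), so the pooled difference was not seen there. Sebaceous-high cells were 88 of 1872 male-called and 49 of 3776 female-called GOF cells, and 323 of 7891 male-called control cells. The part of this state mix was not tested, and Hsd11b1 was not split by sex call within states. The 5 GOF UMIs in basal-keratin-high cells cover all sex calls. Of 6 sodium transport genes acting with Sgk1, 2 were lower and 0 higher. These were the sodium channel subunits Scnn1g, at 2.73 CPM in GOF and 4.74 CPM in control (log2 -0.79), and Scnn1b, at 14.7 and 24.1 CPM (log2 -0.71), which in male-called cells had log2 ratios of -1.19 and -0.88. In hedgehog-high cells Scnn1b stood at 70.9 CPM in GOF and 71.5 CPM in control, and Scnn1g at 12.3 and 13.5 CPM. There 0 of 5 measured genes of this list were lower (5.40% of all genes) and 0 higher. In basal-keratin-high cells 3 of 6 were lower (7.03% of all genes) and 0 higher.

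Per1 belongs to the clock and to the genes induced early by many stimuli, and both lists were counted. Over all keratinocytes, of 15 clock genes 0 were lower and 1 higher (median log2 0.09): the repressor Cry1 stood at 15.4 CPM in GOF and 9.69 CPM in control (log2 0.67; 14.7 and 9.64 CPM in male-called cells). Npas2 had 1.39 and 2.04 CPM (log2 -0.55), Hlf 85.2 and 61.8 CPM (log2 0.46), and Dbp 101 and 108 CPM (log2 -0.10). Of 14 immediate early genes 1 was lower and 0 higher (median 0.08): the stress factor Atf3 stood at 10.6 CPM in GOF and 16.0 CPM in control (log2 -0.59), and at 15.2 and 16.1 CPM in male-called cells. Egr1 had 95.8 and 72.4 CPM (log2 0.40), and Fos 49.9 and 58.2 CPM (log2 -0.22). In hedgehog-high cells, where 5.40% of all genes were lower by at least 1.5-fold, 4 of 13 measured immediate early genes (median log2 -0.32) and 3 of 14 clock genes (median -0.02) were, beside a median of 0.08 over all genes. Basal-keratin-high cells, where 7.03% of all genes were lower, had fewer. There 1 of 14 immediate early genes was lower and 0 higher (median -0.003). Of 15 clock genes 1 was lower and 1 higher (median 0.07).

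Across the 20 profiles of state and library, the 6 genes did not share one pattern. Pearson's r of log2(CPM + 1), given as a description of profiles that share libraries and depth, was 0.80 between Per1 and Zbtb16, 0.72 between Per1 and Sgk1 and -0.04 between Tsc22d3 and Fkbp5. The receptor's own profile had r of -0.44 with Tsc22d3 and -0.27 with Fkbp5. Among 7988 genes, the profiles most like Nr3c1 were those of Stox2, Fam120b and Ddx50 (0.94, 0.94 and 0.93), and those most like Tsc22d3 were Oplah, Nfkbiz and Chdh (0.91, 0.89 and 0.83). For Fkbp5 they were Snd1, Aldh1l1 and Xylt2 (0.91, 0.89 and 0.89), and for Sgk1 Sesn1, S1pr5 and Ahr (0.94, 0.94 and 0.92). Spry1 was among the 3 nearest to both Per1 (0.85, after Ddr1 with 0.85 and before Mst1r with 0.84) and Zbtb16 (0.90, before Mir205hg with 0.87 and Rabac1 with 0.85).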

How the data were processed

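Droplet 3′ RNA-seq was measured in 1 library per genotype. The deposited values are UMI counts per gene and barcode, whole numbers with no normalization. Per the file headers, Cell Ranger 6.1.1 wrote them. Build mm10, Seurat 4.2.0 and R 4.3.0 are named in the submitters' processing notes. The labels state 10000 cells loaded per channel and 8046 control cells, beside 11438 GOF barcodes (6922 kept) and 24844 control barcodes (10993 kept, 8187 with at least 2000 genes). The lowest barcode totals were 500 UMIs (GOF) and 502 UMIs (control), and kept cells held 113294993 and 109148304 UMIs.

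The 6 genes and all lists were chosen with earlier results of these data known. Marker cuts were set from marker counts alone. Mitotic cells (at least 6 marker UMIs) were set apart first. Other cells took the list with the highest multiple of its cut (3 hedgehog, 100 suprabasal, 30 tail scale, 10 upper follicle, 12 sebaceous, 4 bulge list), then basal-keratin-high (60) or low-marker. Cells reaching several lists were 2.90% of GOF and 4.59% of control keratinocytes. Melanocyte (8), immune (8) and stromal cells (4, without Dcn, which Krt5 and Ptch1 positive keratinocytes carried) were taken out. The 11 GOF and 92 control cells under 3000 UMIs were placed unthinned and left out of shares. Scrublet's automatic threshold marked 0 cells in both libraries and so did not work. No doublets were removed, and removing the top 6% of scores was an alternative.

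UMIs were summed per state and library and scaled to that sum (CPM), with exact Poisson intervals. Ratios carry exact conditional intervals and shares Clopper-Pearson intervals, computed with Python 3.11.15, numpy 2.4.6, scipy 1.17.1 and scanpy 1.11.5. A gene counted as different past 1.5-fold with at least 50 pooled UMIs. Male-called cells had a Y-linked UMI and no Xist UMI, female-called cells the reverse. The ratio code was tested on simulated counts. Named genes were the 6, the 3 genes nearest in profile to each (at least 20 CPM in a profile and 200 pooled UMIs, without gene models, mitochondrial and ribosomal protein genes), and up to 4 genes per list with the largest ratios. Klf9, Dusp1, Mt1, Dbp and Fos were named after their values were seen. Some genes that this rule selected are not reported here.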

Additional observations from a re-analysis of the deposited data

Results flagged for a closer look

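Sgk1 differed between the libraries in opposite directions in different keratinocyte states, each with an interval for counting error that leaves out 1. Its log2 ratio of GOF over control was -0.51 in hedgehog-high, -0.69 in mitotic hedgehog-high, -0.38 in other mitotic, -0.48 in basal-keratin-high and -0.23 in suprabasal-high cells. It was 0.26 in upper-follicle-high, 0.50 in Postn/Lhx2-high and 0.36 in low-marker cells. With 1 library per genotype the difference between states was not tested. Between male-called cells the interval lay below 1 in 5 and above 1 in 2 of 10 states: the ratio was 0.967 (0.844 to 1.11) in upper-follicle-high cells, whose interval includes 1, and 0.523 in suprabasal-high cells, beside 0.854 in all cells of that state. The states with positive ratios are those with the most Sgk1 in both libraries.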

How the results depend on the processing

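Over 12 settings of the filter, doublets, depth, scaling, sex calls and states, the log2 ratio in all keratinocytes ran from -1.06 to -0.66 for Tsc22d3, -1.15 to -0.61 for Fkbp5, -0.95 to -0.52 for Per1 and 0.13 to 0.34 for Nr3c1. Sgk1 (-0.07 to 0.13) and Zbtb16 (-0.53 to 0.10) changed sign. Per1 was within 1.5-fold, leaving 2 lower genes, with at most 5% mitochondrial UMIs, thinning or equal weight of states. The 2 higher pairs of gene and state became 1 under that mitochondrial limit, thinning, median-of-ratios scaling, and CPM without mitochondrial and ribosomal protein genes; lower pairs ran from 19 (thinned) to 31. In male-called mitotic hedgehog-high cells Zbtb16 reversed to 0.82 (9 UMIs in GOF, 53 in control); the cause was not tested. Sgk1 had 0 UMIs in those 15 GOF cells, so it has no log2 ratio there. Leaving out low-marker cells or those near a cut was chosen after seeing the data. No state had over 90% of its cells from 1 library, so that alternative was not run. No paired analysis was possible because each genotype has 1 library and no replicate numbers. Without the filter on pooled UMIs 15.1% of all genes were lower and 17.0% higher past 1.5-fold, beside 5.52% and 6.54%. Depth limits the rare states.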
